A study of Homo sapiens with 4 samples.

Results

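The peaks of chromosome 17 described here are intervals in which the phosphorylated histone H2A.X (γH2AX) was enriched in SK-UT-1, an established human line of uterine leiomyosarcoma, which is a cancer of smooth muscle cells. They are the merged rows of 4 peak lists that lie on chromosome 17 of hg38 with a midpoint more than 1 Mb from either end and outside 21 to 28 Mb, the stretch that holds the centromere. By this rule 9110 of the 209276 merged peaks of the series on chromosomes 1 to 22 and X were taken. Of these, 3328 were from the DMSO list, 2680 from the OTS186935 list, 1909 from the doxorubicin list and 1193 from the combination list. The chromosome was chosen by a measured value, the share of its DMSO peaks that the treated lists overlapped, which was lower than on most other autosomes. That overlap is therefore described and not tested.

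Chromatin bound by an anti-γH2AX antibody was recovered and sequenced (ChIP-seq). The control cells were given only the solvent, DMSO, at 0.1%. The other groups were given OTS186935 (1 µM), which inhibits the histone methyltransferase SUV39H2, or doxorubicin (0.5 µM), which poisons topoisomerase II, or both drugs at these doses, called the combination. There was 1 library per group and no replicate, SK-UT-1 was the only line, and the treatment time is not given here. Values are therefore set side by side, and the bracketed 95% intervals (exact Clopper-Pearson) cover counting error only, not the spread between cultures.

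H2A.X is phosphorylated by the kinases ATM, ATR and DNA-PK around DNA double-strand breaks and stalled replication forks, and the mark spreads over long stretches of chromatin from which short local maxima can be called as peaks. SUV39H2 methylates lysine 9 of histone H3, a mark of silent chromatin. Doxorubicin traps topoisomerase II on cut DNA. Chromosome 17 is a small, gene-dense chromosome that carries NF1, ERBB2, BRCA1, TOP2A, the HOXB genes, a block of skeletal myosin heavy chain genes and the type I keratin cluster.

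Promoter sequences (250 bases before to 50 after a gene's start, RefSeq, GRCh38.p14) are shown for 5 genes whose promoter window lay at least 50 bases inside a peak, because these genes stand for the ways in which a chromosome 17 peak could behave. ZPBP2 (chr17:39867952-39868251, plus strand) and GPR179 (chr17:38343907-38344206, minus strand) had a DMSO peak that all 3 treated lists overlapped. KRT31 (chr17:41397559-41397858, minus strand) and CYB561 (chr17:63446590-63446889, minus strand) had a DMSO peak that no treated list overlapped, and they were taken, after their values were seen, from the 19 genes whose DMSO gene-end peak had a −log10 q (the authors' false discovery value) of 5 or more and which had no treated gene-end peak. KRT33A (chr17:41350779-41351078, minus strand) had a peak with OTS186935 and with doxorubicin but none with DMSO. Each is written 5′ to 3′ along its gene, and capitals mark motifs. The GC box was searched as GGGCGG. Its reverse complement, the letters CCGCCC, was searched too. The TATA box was searched as TATAAA and on the opposite strand with the letters TTTATA.
ZPBP2: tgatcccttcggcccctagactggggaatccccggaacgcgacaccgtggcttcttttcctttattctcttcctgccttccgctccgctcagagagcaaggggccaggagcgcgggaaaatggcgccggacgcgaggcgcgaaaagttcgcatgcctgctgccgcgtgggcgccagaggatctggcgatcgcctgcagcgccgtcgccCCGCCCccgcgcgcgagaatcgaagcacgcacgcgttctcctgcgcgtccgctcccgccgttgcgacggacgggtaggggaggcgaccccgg
GPR179: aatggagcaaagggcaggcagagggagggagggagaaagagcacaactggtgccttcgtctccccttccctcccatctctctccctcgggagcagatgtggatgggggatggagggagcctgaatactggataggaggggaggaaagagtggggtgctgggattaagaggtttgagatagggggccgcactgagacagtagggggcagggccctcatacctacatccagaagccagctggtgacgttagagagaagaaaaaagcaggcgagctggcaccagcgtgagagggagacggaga
KRT31: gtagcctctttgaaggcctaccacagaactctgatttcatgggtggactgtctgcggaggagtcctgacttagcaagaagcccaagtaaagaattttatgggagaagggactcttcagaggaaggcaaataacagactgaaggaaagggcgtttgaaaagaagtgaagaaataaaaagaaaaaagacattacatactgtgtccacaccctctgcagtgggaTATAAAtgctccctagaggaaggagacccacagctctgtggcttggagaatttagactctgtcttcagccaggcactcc
CYB561: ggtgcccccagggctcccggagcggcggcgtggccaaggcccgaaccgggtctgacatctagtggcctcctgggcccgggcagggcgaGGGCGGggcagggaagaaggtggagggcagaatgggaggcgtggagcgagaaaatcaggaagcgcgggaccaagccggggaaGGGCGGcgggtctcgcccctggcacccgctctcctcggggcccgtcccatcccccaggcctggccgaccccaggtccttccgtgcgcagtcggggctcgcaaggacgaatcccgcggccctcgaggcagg
KRT33A: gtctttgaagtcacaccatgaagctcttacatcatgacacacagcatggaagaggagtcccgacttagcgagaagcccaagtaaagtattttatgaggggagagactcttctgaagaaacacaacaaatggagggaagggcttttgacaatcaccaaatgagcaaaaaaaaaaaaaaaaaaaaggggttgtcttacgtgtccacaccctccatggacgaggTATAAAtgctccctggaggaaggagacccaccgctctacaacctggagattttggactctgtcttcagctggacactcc

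The 5 windows differ in base composition. ZPBP2 had 68.7% G and C and 43 CpG, CYB561 73.7% and 29, GPR179 58.3% and 7, KRT33A 45.7% and 5, and KRT31 46.0% and 2. A GC box was found once in ZPBP2 and 2 times in CYB561, and a TATA box once each in KRT31 and KRT33A. Over the 793 chromosome 17 promoters that could be matched, 60.2% held a GC box, 37.1% a CCAAT box (searched on both strands), 12.7% a TATA box and 11.2% an E-box, which reads CACGTG on either strand. Over 13787 promoters of the other autosomes these shares were 58.4%, 36.1%, 9.65% and 8.60%. DMSO peaks overlapped 101 of the 793 windows. Of these, 33 were overlapped in no treated list, 49 in 1 or 2 and 19 in all 3. On the other autosomes these 3 classes held 638, 731 and 471 of the 13787 windows. No DMSO peak lay on 87.3% of the chromosome 17 windows, beside 86.7% on the other autosomes. The median G and C content was 68.0%, 61.7% and 64.3% in the chromosome 17 classes, so they are not ordered by it. On the other autosomes it was 67%, 65% and 65%. The GC box stood in 66.7%, 44.9% and 73.7% of the chromosome 17 classes, again without an order, beside 70.8%, 63.6% and 63.7%. These classes are small, and the 73.7% is 14 of 19 windows.

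Of the 3328 DMSO peaks, the OTS186935 list overlapped 1405, or 42.2% (40.5 to 43.9), beside 43.4% over all 22 autosomes. Doxorubicin overlapped 998, or 30.0% (28.4 to 31.6), beside 34.2% over all autosomes. The combination overlapped 644, or 19.4% (18.0 to 20.7), beside 23.1%. Over the other 21 autosomes the shares were 43.5%, 34.4% and 23.3%, so chromosome 17 stood at −1.29, −4.44 and −3.98 percentage points from them. The value of the other autosomes lies inside the interval of chromosome 17 with OTS186935 and above it with doxorubicin and the combination. No treated list overlapped 1450 DMSO peaks of chromosome 17, or 43.6%, beside 40.9% over all autosomes. All 3 overlapped 295, or 8.86%, beside 11.7%. These 3 readings share the 1 DMSO list.

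**Figure D1:**
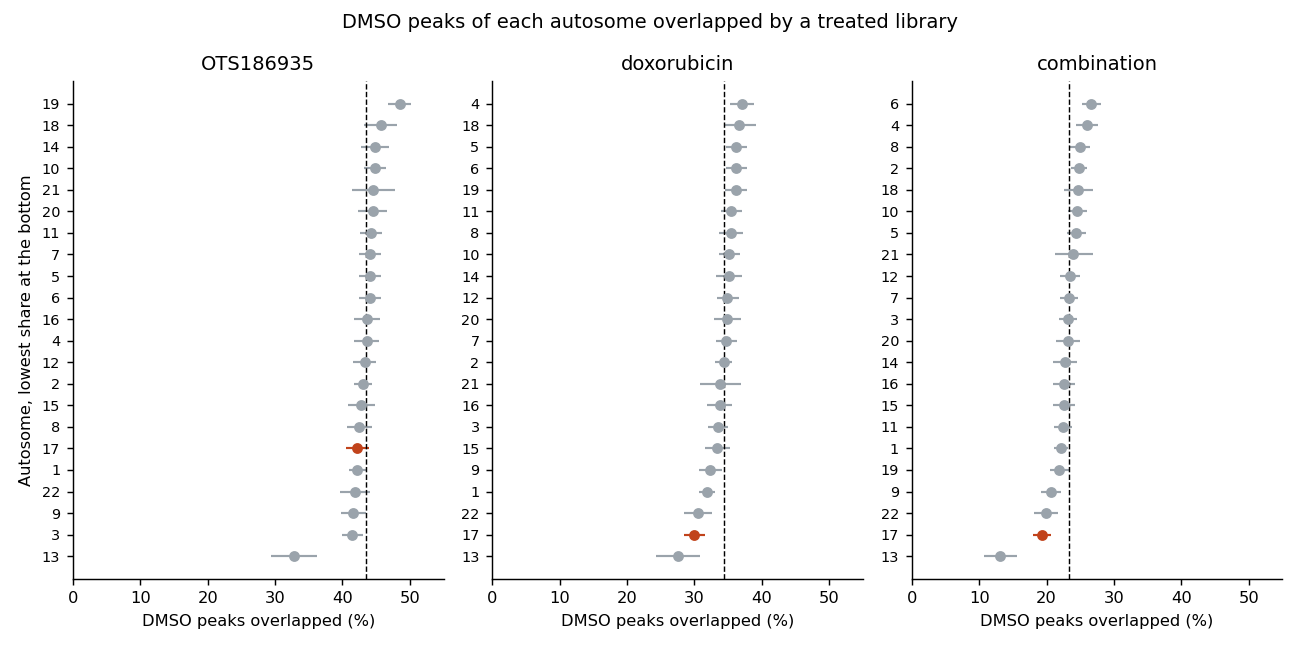
Each row is 1 autosome, ordered by its share within a panel, and the horizontal axis gives the percentage of its DMSO peaks overlapped by the treated list, with exact 95% intervals; chromosome 17 is in red and the dashed line is the share of the other autosomes pooled. Chromosome 17 is second from the bottom with doxorubicin (30.0%) and the combination (19.4%) and sixth from the bottom with OTS186935 (42.2%).

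Among the 22 autosomes chromosome 17 had the second lowest share with doxorubicin and with the combination, after chromosome 13 in both (27.5% and 13%). With OTS186935, 5 autosomes were lower, from 32.8% on chromosome 13. The highest shares were 48.5% on chromosome 19 with OTS186935, 37.0% on chromosome 4 with doxorubicin and 26.6% on chromosome 6 with the combination. Chromosome 22, the next above chromosome 17 with both doxorubicin-treated lists (30.5% and 19.9%), is also small and gene-dense. With OTS186935 it had 41.9%, below chromosome 17. Chromosome 19, with the most DMSO peaks per Mb, had 36.2% with doxorubicin, above the 34.4% of the autosomes other than chromosome 17. With the combination it had 21.9%, which was place 5 from the lowest of 22. Beside the others given its own mix of strength and background, chromosome 19 stood at −2.61 points with doxorubicin and −3.88 with the combination. With doxorubicin and the combination, the name "preferentially lost" restates the low share for which the chromosome was chosen and is no separate result. With OTS186935 alone the name depends on how the peaks are compared. The −1.29 points there became −3.59 for DMSO peaks with −log10 q of 5 or more, −4.51 with lists of equal length, and −3.32 with the other autosomes given the mix of strength and background of chromosome 17. It turned positive for DMSO peaks with −log10 q of 10 or more (3.41) and for peaks at the floor of the background (1.54).

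Peak counts do not use overlap, but they come from the same lists and are no separate support. They too were lower on chromosome 17 than on the other autosomes pooled. The number of chromosome 17 peaks with OTS186935 was 80.5% of that with DMSO, beside 81.5% on the other autosomes. With doxorubicin it was 57.4%, beside 65.2%, and only chromosome 22 was lower (55.6%). Chromosome 19 was next above (57.8%), although its overlap share with doxorubicin was higher than that of most autosomes. With doxorubicin the order of autosomes by count was thus not that by overlap. With the combination the number on chromosome 17 was 35.8% of that with DMSO, beside 40.1%, with 3 autosomes lower. The length covered by peaks was 1814 kb with DMSO, 1404 kb with OTS186935, 879 kb with doxorubicin and 525 kb under the combination, and the median width went from 468 to 447, 399 and 386 bp. Strong peaks thinned out most. The DMSO list held 759 peaks with a −log10 q of at least 5, the OTS186935 list 369, the doxorubicin list 169 and the combination list 67. These are 48.6%, 22.3% and 8.83% of the DMSO number, beside 55.2%, 24.5% and 13.4% on the other autosomes.

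The DMSO peaks of chromosome 17 were set in a higher local background than those of most autosomes. There were 44.8 DMSO peaks per Mb, a density exceeded only on chromosome 19 (59.5). The local background, the number of fragments that MACS2 took as the expectation at a peak, had a median of 1.06 on chromosome 17 and 0.66 on the other autosomes, and 19 of the 21 had a lower median. Of the chromosome 17 peaks 79.5% stood above the floor of the background, beside 65.4% elsewhere. Their summits were a little taller, with a median of 9 fragments against 8, but less significant, with a median −log10 q of 3.38 against 3.61. Gene ends (1 kb either side of an annotated start or end of a coding gene) held 14.1% of them and gene bodies 69.4%, beside 10.5% and 57.7%.

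Stronger DMSO peaks were overlapped more often, on chromosome 17 and on the other autosomes pooled, and the 2 were compared within bands of strength. Among the 48 DMSO peaks with −log10 q of 10 or more, OTS186935 overlapped 81.3% (67.4 to 91.1), doxorubicin 70.8% (55.9 to 83.0) and the combination 43.8% (29.5 to 58.8). On the other autosomes these were 77.8%, 71.5% and 56.8%, so at this strength chromosome 17 was lower mainly with the combination, on few peaks. In the band from 5 to 10, with 711 peaks, the shares were 58.2%, 49.1% and 31.4%, beside 62.1%, 53.4% and 39.0%. In the band from 3 to 5, with 1095 peaks, they were 46.1%, 29.8% and 21%, beside 46.1%, 35.8% and 23.8%. Below 2 they were 26.0%, 15.7% and 8.45%, beside 25.3%, 17.7% and 10.4%. With doxorubicin and the combination chromosome 17 was the lower of the pair in all 5 bands, and with OTS186935 only in the band from 5 to 10.

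**Figure D2:**
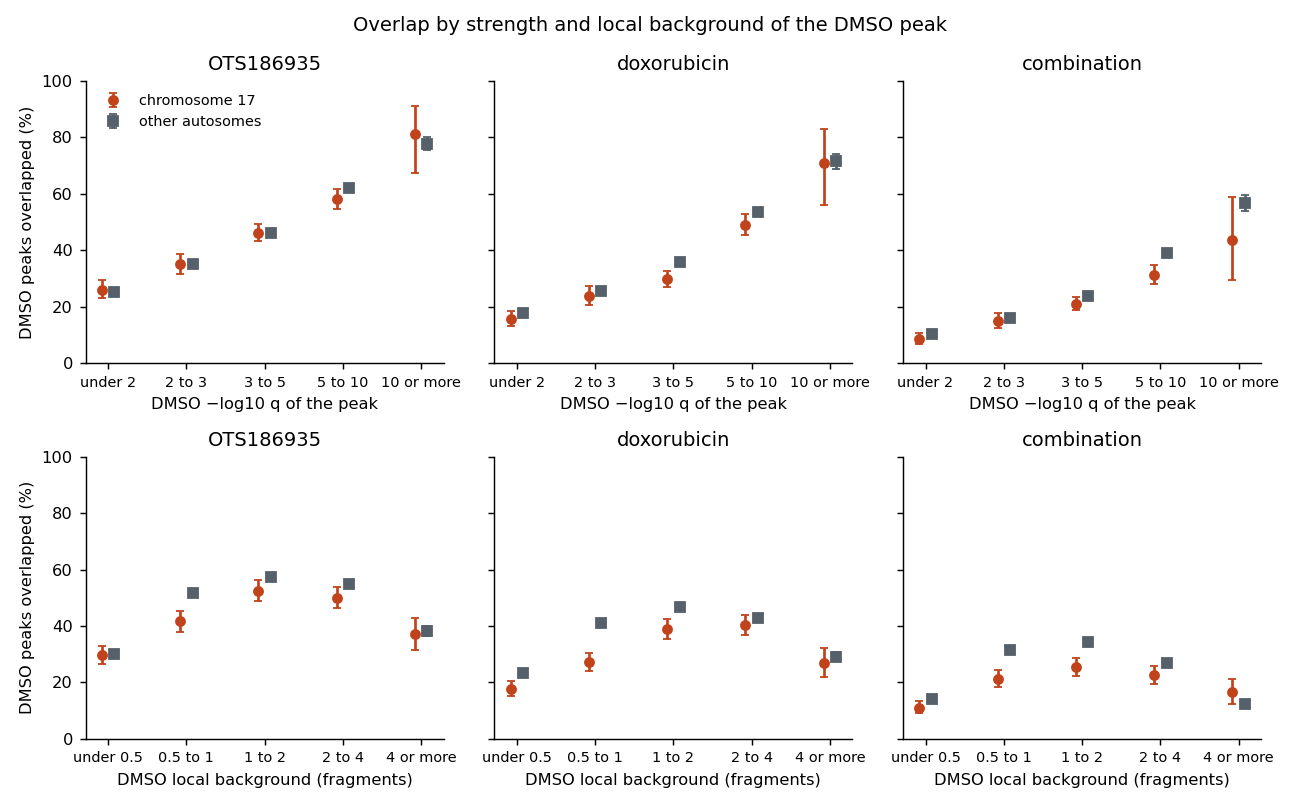
The vertical axis is the percentage of DMSO peaks overlapped by each treated list, with exact 95% intervals, in bands of the peak's DMSO −log10 q (upper row) and of its DMSO local background in fragments (lower row); circles are chromosome 17, squares the other autosomes pooled. Circles lie below squares in all upper panels with doxorubicin and the combination, and in the lower row the gap is widest at a local background of 0.5 to 1 (27.1% against 41.0% with doxorubicin).

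Sorting by local background widened the distance. At 0.5 to 1 fragments, with 741 peaks, chromosome 17 had 41.6% with OTS186935, 27.1% with doxorubicin and 21.3% under the combination, beside 51.7%, 41.0% and 31.3%. Under 0.5, with 859 peaks, it had 29.6%, 17.7% and 11.1%, beside 29.9%, 23.4% and 14.2%. At 4 or more, with 299 peaks, it had 37.1%, 26.8% and 16.4%, beside 38.1%, 29% and 12.2%, and here the combination was higher on chromosome 17. If the other autosomes had the same mix of −log10 q bands, chromosome 17 would stand at −0.59, −3.73 and −3.39 points from them, and at −4.47, −6.95 and −5.50 with the same mix of background classes. With both it stood at −3.32, −5.74 and −4.53 points, second lowest of 22 with each single drug and lowest with the combination. Chromosome 22, set beside the others at its own mix, stood at −5.15, −6.18 and −4.31 points. The low standing was thus not particular to chromosome 17. The background classes were chosen after the data were seen.

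At peaks that both lists held, the change in fold enrichment was near that of the other autosomes. The median ratio of treated to DMSO fold at shared peaks was 0.960 with OTS186935, 0.900 with doxorubicin and 0.876 under the combination, beside 0.955, 0.898 and 0.879. The local background at these peaks, taken over the floor of its own library, did move. Treated minus DMSO, its median difference on the log2 scale was −0.00 with OTS186935, −0.05 with doxorubicin and −0.14 under the combination, beside −0.00, 0.00 and −0.02. Chromosome 17 was the third lowest of 22 in the last 2, and chromosome 19 lowest, at −0.20 and −0.30. The part of this background shift, and of depth, in the overlap shares was not tested. The floor itself, the only trace of depth in the lists, was 0.454 fragments with DMSO, 0.397 with OTS186935, 0.389 with doxorubicin and 0.428 under the combination. The lowest summit listed at the floor was 4 fragments with the combination and 3 in the other lists.

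The 1450 DMSO peaks overlapped nowhere were low and narrow, with a median −log10 q of 2.75, a summit of 7 fragments and a width of 425 bp. On the other autosomes this class had 2.75, 6 fragments and 414 bp. The 295 overlapped in all 3 had medians of 5.23, 12 fragments and 683 bp, beside 5.50, 11 fragments and 667 bp. The contrast was thus not particular to chromosome 17. Rows with several summits made up 1.03% of the first and 23.4% of the second, beside 0.73% and 15.5% on the other autosomes. Gene ends held 12.6% of the first and 19.3% of the second, beside 9.52% and 15.0%. Gene bodies held similar parts, 69.4% and 72.9%, beside 58.2% and 54.4%. Overlap with OTS186935 alone was the commonest partial class (594 peaks), followed by OTS186935 with doxorubicin (366), doxorubicin alone (274), OTS186935 with the combination (150), the combination alone (136) and doxorubicin with the combination (63). On the other autosomes these classes stood in the same order, with 10120, 7008, 5734, 3029, 2646 and 1633 peaks. This order too was thus not particular to chromosome 17.

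The 11 DMSO peaks of highest −log10 q are given as examples. They were chosen on their DMSO values, so lower values in the other lists follow in part from the choice and are read as a description. In TNRC6C, which encodes a protein of microRNA-guided silencing, the peak at chr17:78086776-78087168 had a fold enrichment of 10.2 with DMSO, 6.44 with OTS186935 and 6.55 with doxorubicin, and none was listed with the combination. In IGF2BP1, which encodes an RNA-binding protein, the peak at chr17:49003817-49004394 had 10.1, 4.27, 6.17 and 5.76 in DMSO, OTS186935, doxorubicin and the combination. In CPD, which encodes carboxypeptidase D, the peak at chr17:30388228-30389218 was in all lists, with 8.55, 7.95, 6.30 and 5.82 and summits of 22, 17, 12 and 10 fragments. In NPEPPS, which encodes an aminopeptidase and has near-identical copies nearby, the peak at chr17:47556484-47556889 had 10.0 with DMSO and was in no treated list. The peak between genes 19196 bp from COL1A1, which encodes a collagen I chain, had 9.79 with DMSO, 8.29 with OTS186935 and 6.03 with doxorubicin and none with the combination. Of the 11, OTS186935 held 10, doxorubicin 9 and the combination 5. The combination lacked those of TNRC6C, NPEPPS, ZNF594 and SSH2 and those near COL1A1 and CCDC182.

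**Figure D3:**
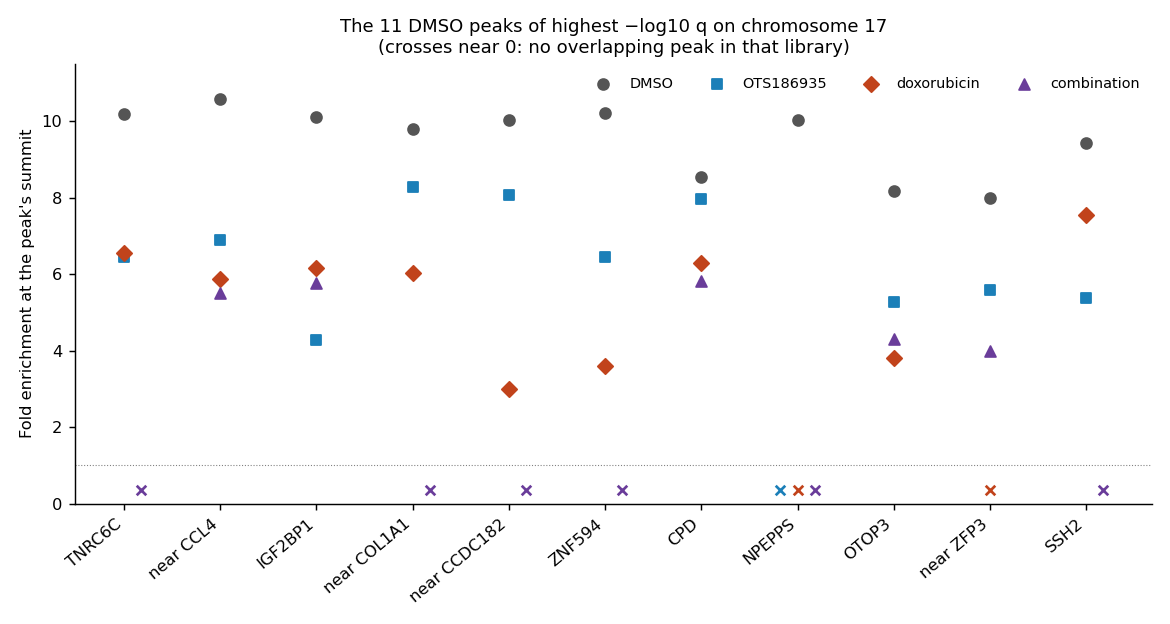
The vertical axis is the fold enrichment over local background, as deposited, for the 11 DMSO peaks of highest −log10 q on chromosome 17, named by the gene that holds them or the nearest one; symbols are the 4 libraries, and a cross near 0 means that no peak of that library overlapped. The peaks were chosen for their DMSO value, so DMSO standing highest is no finding. NPEPPS (10.0 with DMSO) has crosses for all 3 treated libraries.

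Both arms took part. On the short arm, below 21 Mb, 951 DMSO peaks were overlapped at 40.8% (37.7 to 44.0) with OTS186935, 29% (26.2 to 32.0) with doxorubicin and 18.5% (16.1 to 21.1) under the combination. On the long arm, above 28 Mb, 2377 peaks had 42.8% (40.8 to 44.8), 30.4% (28.5 to 32.3) and 19.7% (18.1 to 21.3). The intervals of the arms overlap for each treatment. Among DMSO peaks with −log10 q of 5 or more the shares were 58.7%, 46.8% and 27.9% on the short arm (201 peaks) and 60.0%, 51.8% and 33.7% on the long arm (558 peaks), beside 63.3%, 54.7% and 40.3% of such peaks on the other autosomes.

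In 1 Mb bins the number of DMSO peaks ranged from 6 to 86 over 75 bins, with a median of 42. Shares were ranked in the 63 bins with at least 20 DMSO peaks. They ran from 19.5% to 60.7% with OTS186935, from 16.7% to 44.1% with doxorubicin and from 5.41% to 35.0% with the combination. Below the share of the other autosomes lay 37 of the 63 bins with OTS186935, 47 with doxorubicin and 50 under the combination. With doxorubicin and the combination the lower share was thus not confined to a few bins. No bins of other autosomes are given here, so the usual number of bins below that share is not known. The bins also use the overlap for which the chromosome was chosen. In 49 of 63 bins the shares followed the order OTS186935, doxorubicin, combination. In counts, OTS186935 had more peaks than DMSO in 7 of the 75 bins and doxorubicin and the combination in 0.

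**Figure D4:**
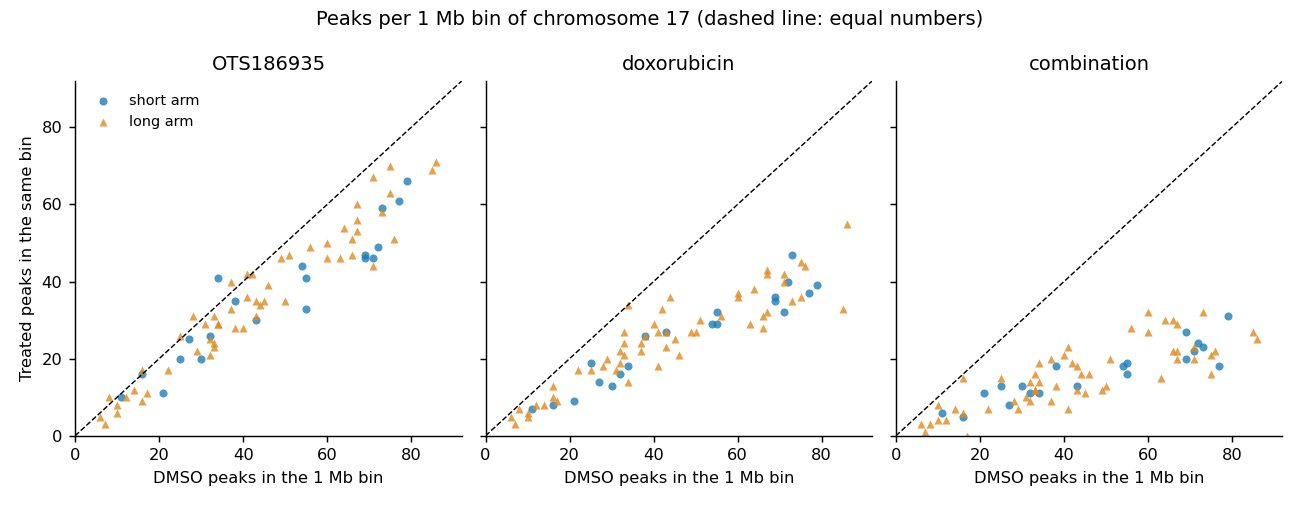
Each symbol is 1 of 75 bins of 1 Mb, with its DMSO peaks on the horizontal axis and the peaks of a treated library on the vertical axis, circles for the short and triangles for the long arm; the dashed line marks equal numbers. Symbols lie above the line in 7 bins with OTS186935 and in 0 with doxorubicin or the combination, and both arms follow the same band.

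The bins richest in DMSO peaks held from 9 to 64 coding genes. At 7 to 8 Mb, with 64 coding genes, 79 DMSO peaks had shares of 48.1%, 31.6% and 22.8% in the OTS186935, doxorubicin and combination lists. At 1 to 2 Mb 77 peaks had 44.2%, 24.7% and 11.7%, and at 8 to 9 Mb 73 peaks had 46.6%, 39.7% and 20.5%. On the long arm 86 peaks at 80 to 81 Mb had 47.7%, 31.4% and 19.8%. At 74 to 75 Mb 85 peaks had 47.1%, 21.2% and 20%, and at 79 to 80 Mb 76 peaks had 34.2%, 35.5% and 14.5%. Among these 6 bins doxorubicin thus varied from 21.2% (13.1 to 31.4) to 39.7% (28.5 to 51.9), with intervals that overlap.

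The lowest mean share of the 3 lists was at 67 to 68 Mb, with 7 coding genes, where 41 DMSO peaks had 19.5% (8.82 to 34.9), 24.4% and 14.6%. At 12 to 13 Mb, with 3 genes, 21 peaks had 23.8%, 19% and 19%, and at 15 to 16 Mb, with 11 genes, 30 peaks had 26.7%, 16.7% and 20%. Bins of highest mean share were 28 to 29 Mb (32 genes, 60 peaks, 50%, 36.7% and 35.0%), 48 to 49 Mb (23 genes, 42 peaks, 59.5%, 31.0% and 31.0%) and 60 to 61 Mb (6 genes, 28 peaks, 60.7%, 35.7% and 25.0%). Bins of few genes thus stood at both ends. The bin at 67 to 68 Mb held 36, 18 and 23 treated peaks, of which 28, 8 and 17 overlapped no DMSO peak, so with OTS186935 and the combination most peaks of this bin lay where DMSO had none. Its median local background was 0.48, against 1.22 at 28 to 29 Mb, 1.18 at 48 to 49 Mb and 0.51 at 60 to 61 Mb.

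Longer stretches were drawn after the bins were seen and are given as a description. From 10 to 16 Mb, with 34 coding genes that include the skeletal myosin genes and PMP22, 137 DMSO peaks had 35.0% (27.1 to 43.6), 20.4% (14.0 to 28.2) and 19.7% (13.4 to 27.4). From 1 to 10 Mb, with 226 genes, 585 peaks had 42.6% (38.5 to 46.7), 30.9% (27.2 to 34.9) and 18.3% (15.2 to 21.7), with intervals that overlap those of 10 to 16 Mb for each treatment. From 57 to 69 Mb, with 110 genes, 452 peaks had 36.9%, 27.7% and 17.7%, while from 28 to 51 Mb, with 477 genes, 1091 peaks had 44.4%, 31.3% and 21.5%. From 51 to 57 Mb, also sparse with 12.7 DMSO peaks per Mb, 76 peaks had 46.1%, 32.9% and 28.9%, so sparse stretches did not all lie low. From 72 Mb to the limit before the last Mb, the densest with 71.2 peaks per Mb, 729 peaks had 44.3%, 30.6% and 17.3%.

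The limits of the rule fell at a change in overlap near the ends. In the first Mb, just outside, 91 DMSO peaks had 65.9%, 51.6% and 35.2%, while in the second Mb, just inside, 77 peaks had 44.2%, 24.7% and 11.7%. In the last Mb 141 peaks had 60.3%, 50.4% and 26.2%, and in the Mb before it 71 peaks had 39.4%, 22.5% and 14.1%. Around the left-out stretch the values were closer. At 20 to 21 Mb 25 peaks had 48.0%, 24.0% and 20%, and at 21 to 22 Mb 39 peaks had 41.0%, 38.5% and 12.8%. At 27 to 28 Mb 40 peaks had 47.5%, 27.5% and 27.5%.

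Treated lists also held peaks where DMSO had none. With OTS186935 1270 chromosome 17 peaks, or 47.4% (45.5 to 49.3), overlapped no DMSO peak, beside 46.6% over all autosomes. With doxorubicin there were 907, or 47.5% (45.3 to 49.8), beside 47%. With the combination there were 547, or 45.9% (43.0 to 48.7), beside 41.7%, and 19 of 21 autosomes had a lower share. These peaks had median summits of 7, 6 and 7 fragments, beside 6, 5 and 6 on the other autosomes. A −log10 q of 5 or more was found for 91 of 1270, 40 of 907 and 25 of 547. On the other autosomes it was found for 2170 of 24169, 788 of 19521 and 574 of 10605. The combination list was also compared with each single drug. It overlapped 443 of 1909 doxorubicin peaks, or 23.2% (21.3 to 25.2), beside 26.7% over all autosomes, and 574 of 2680 OTS186935 peaks, or 21.4% (19.9 to 23), beside 25.1%. Of the combination's own 1193 peaks doxorubicin overlapped 37.0% (34.2 to 39.8), beside 43.7% on the other autosomes, and OTS186935 48.2% (45.3 to 51.1), beside 51.7%. Doxorubicin overlapped 32.3% of the OTS186935 peaks, beside 36.5% on the other autosomes, and OTS186935 overlapped 45.7% of the doxorubicin peaks, beside 45.8%. These pairs do not use the DMSO list, but they use the treated lists by which the chromosome was chosen, so they are described only. The value of the other autosomes lay inside the interval of chromosome 17 only in the last (43.4 to 47.9).

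Gene ends were read over 1120 coding genes of chromosome 17, of which strand was known for 794. A gene-end peak was found at 456 genes with DMSO (40.7%, beside 38.3% over all autosomes), at 327 with OTS186935 (29.2%, beside 28.1%), at 237 with doxorubicin (21.2%, beside 21.1%) and at 165 with the combination (14.7%, beside 14.2%). Of the 456, 248 also had one with OTS186935 (54.4%, beside 55.4%), 188 with doxorubicin (41.2%, beside 43%) and 129 with the combination (28.3%, beside 30.5%). Counted by gene, the shares of chromosome 17 thus stood near those of all autosomes. Counted by peak, the 470 DMSO peaks at its gene ends were overlapped at 47.4% (42.9 to 52.1) with OTS186935, 36.2% (31.8 to 40.7) with doxorubicin and 23.2% (19.4 to 27.3) under the combination, beside 49.7%, 38.9% and 28.1% on the other autosomes. The last of these lies above the interval of chromosome 17. Every list had a peak at 72 genes, and DMSO alone at 140. No value over the other autosomes is given here for either count. Neighbouring genes can share a peak and are then each counted.

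At 58 genes the strongest gene-end peak was overlapped in all 3 treated lists, and the 6 of highest DMSO fold are given here. ZPBP2, which encodes a sperm protein and whose promoter is printed above, had a fold enrichment of 8.00 with DMSO, 5.26 with OTS186935, 8.07 with doxorubicin and 4.69 under the combination, over a peak at chr17:39867949-39868481 that spans the whole promoter window. GPR179, an orphan receptor of retinal bipolar cells, had 6.94, 4.70, 3.27 and 5.35, and 174 of the 300 bases of its printed window lay in the DMSO peak. SLFN13, which encodes an RNA-cleaving schlafen protein, had 6.91, 4.95, 4.76 and 5.08. KRT9, a keratin of the skin of palms and soles, had 6.82, 5.41, 4.28 and 5.48. USP6, a ubiquitin protease gene rearranged in some soft tissue tumours, had 6.56, 4.06, 4.30 and 4.54, and KRTAP17-1, a hair keratin-associated protein gene, had 6.40, 5.63, 5.27 and 3.54. These genes were chosen for a high DMSO fold, so lower treated values follow in part from the choice.

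Among the 19 genes with a DMSO gene-end peak of −log10 q of 5 or more that was overlapped in none and had no treated peak in the window, the highest were as follows. SPACA3, which encodes a sperm acrosome protein, had a fold of 8.81 and a summit of 17 fragments with DMSO at its 3′ end (chr17:32996561-32997220). PMP22, which encodes a myelin protein, had 7.57 and 10 fragments at its 3′ end (chr17:15230768-15231260), at the floor of the background. PIGL, an enzyme of glycosylphosphatidylinositol anchor synthesis, and KRT40, a hair keratin, each had 6.83 and 9 fragments at the 3′ end. CCL5, a chemokine gene, had 6.55 and 10 fragments, and SLC16A5, a monocarboxylate transporter gene, had 6.31 and 19 fragments. For 4 of these 6 strand was known, and each of those peaks lay at the 3′ end, so the printed examples of the lost class, KRT31 (fold 5.39) and CYB561, which encodes a cytochrome of the b561 family (4.98), come from lower in the same set.

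Some genes had a peak only under treatment. ALDOC, which encodes aldolase C, had 6.70 with OTS186935 and 6.04 with the combination at its 3′ end and none with DMSO or doxorubicin. FAM117A had 6.68, 5.95 and 4.65 with OTS186935, doxorubicin and the combination. NDEL1, a dynein regulator, had 5.81 and KAT7, which encodes a histone acetyltransferase, 5.73 with OTS186935 alone. FBXL20, which encodes an F-box protein, had 6.67 with doxorubicin and, in a separate peak, 5.31 with the combination. SPMAP1 had 3.27 with OTS186935 and 5.61 with doxorubicin. KRT33A, printed above, had 4.51 with OTS186935 and 6.11 with doxorubicin, where 106 of its 300 promoter bases lay in the peak. PSMD12, which encodes a proteasome subunit, had 6.05 with the combination alone, as did KRTAP3-3 and KRTAP3-1, near-identical genes that both had 5.60.

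**Figure D5:**
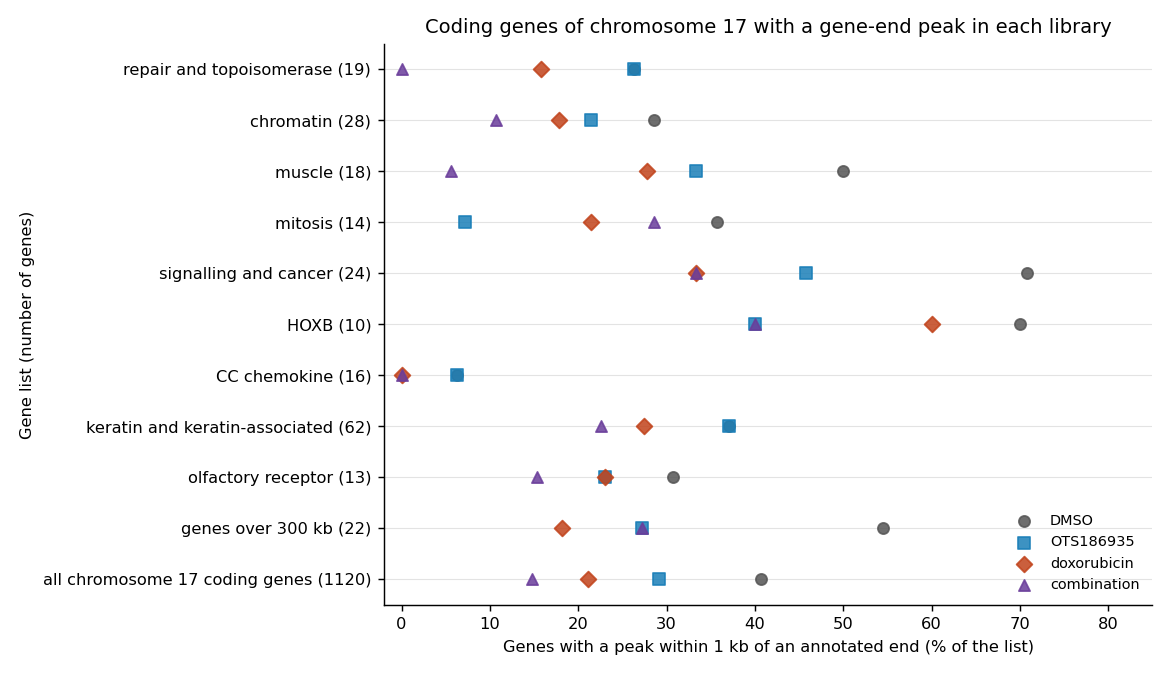
The horizontal axis is the percentage of the genes of each list with a peak within 1 kb of an annotated end, symbols are the 4 libraries, and the number of genes stands in brackets; lists of under 10 genes are left out. Over all 1120 genes the values are 40.7% with DMSO, 29.2% with OTS186935, 21.2% with doxorubicin and 14.7% under the combination, and the repair and topoisomerase list reaches 0 with the combination.

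Repair and topoisomerase genes of chromosome 17 had a gene-end peak in 5 of 19 with DMSO, 5 with OTS186935, 3 with doxorubicin and 0 under the combination, where 0 of 19 allows a share of up to 15.8%. Over all 1120 coding genes of the chromosome the shares were 40.7%, 29.2%, 21.2% and 14.7%, and the list had 26.3%, 26.3%, 15.8% and 0%. Within 2.5 kb of a gene end the list had 9, 10, 4 and 1. A fold below is that of the strongest peak at either end of the gene, which need not be the same peak in each list. RPA1, the large subunit of the single-strand binding complex, had 5.23, 6.19 and 4.66 with DMSO, OTS186935 and doxorubicin, in peaks that overlapped. CTC1, of the telomere CST complex, had 5.09 with DMSO and 6.14 with OTS186935 in overlapping peaks, and a separate peak of 3.13 with doxorubicin, which did not overlap the DMSO peak. Inside gene bodies the list had 55 DMSO peaks, of which 22, 17 and 10 were overlapped with OTS186935, doxorubicin and the combination (40%, 30.9% and 18.2%), beside 42.1%, 31.0% and 19.7% of 2310 in all coding genes of the chromosome. BRCA1, which had no gene-end peak, held 9, 6, 6 and 2 body peaks in the 4 lists. The absence of gene-end peaks with the combination thus did not extend to the bodies.

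Muscle genes had few combination peaks at their ends or in their bodies. A gene-end peak was found at 9, 6, 5 and 1 of 18 genes with DMSO, OTS186935, doxorubicin and the combination (50%, 33.3%, 27.8% and 5.56%), and within 2.5 kb at 11, 9, 7 and 2. Their median DMSO fold was 3.81, beside 4.21 over all coding genes of the chromosome with such a peak. MYH10, which encodes nonmuscle myosin IIB, had a DMSO peak of 5.19 at its 5′ end, which both single drugs overlapped (3.54 with doxorubicin) and the combination did not. The strongest OTS186935 peak of MYH10, with 5.81, was another one, at the 3′ end, and is the peak given above for NDEL1. MYOCD, which encodes myocardin, the coactivator of smooth muscle genes, had 4.81 with DMSO and 2.86 with OTS186935. MYH8, a perinatal skeletal myosin gene, had 4.81 with DMSO alone, and UNC45B, a myosin chaperone gene, had 3.88, 5.00 and 3.37 in the first 3. Gene bodies of the list held 41 DMSO peaks. OTS186935 overlapped 15 and doxorubicin 15 of them (36.6% each), and the combination overlapped 0, which allows a share of up to 7.32%, beside 19.7% over all gene bodies. The combination list held 2 peaks in these bodies, in MYOCD and MYH3, beside 32 and 26 with the single drugs. CACNA1G, a calcium channel gene chosen for its values, held 6, 5, 7 and 0 body peaks, and MYH10 9, 7, 4 and 0. Whether so small a list differs from other genes of the chromosome was not tested.

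Chromatin genes had a gene-end peak in 8, 6, 5 and 3 of 28 (28.6%, 21.4%, 17.9% and 10.7%), below the share over all coding genes in each list, and within 2.5 kb in 13, 12, 12 and 8. PHF12, which encodes a subunit of a histone deacetylase complex, had one in all lists, with folds of 5.24, 5.24, 4.30 and 5.96. H3-3B, a histone H3.3 gene, had 4.91 with DMSO and 5.48 with OTS186935. EZH1, a histone H3 lysine 27 methyltransferase gene, had 4.81 and SMARCD2, of the SWI/SNF complexes, 4.44, both with DMSO alone. Of 65 DMSO peaks in the bodies of the list, 41.5%, 16.9% and 16.9% were overlapped with OTS186935, doxorubicin and the combination, beside 42.1%, 31.0% and 19.7% over all gene bodies. The interval with doxorubicin (8.76 to 28.3) lies below the value over all bodies.

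Mitosis and replication genes had 5, 1, 3 and 4 of 14 (35.7%, 7.14%, 21.4% and 28.6%), beside 40.7%, 29.2%, 21.2% and 14.7% over all coding genes. The low OTS186935 count rests on the window, since within 2.5 kb the list had 7, 7, 4 and 4. KIF2B, a kinesin gene, had a peak in all lists with folds of 5.90, 5.05, 2.88 and 5.43. AURKB, the Aurora B kinase gene, had 5.05 with DMSO and 4.16 with doxorubicin. CENPV had 4.36 with DMSO alone, and SPAG5, a spindle protein gene, had 3.97 with DMSO and 3.32 with the combination. TOP2A, whose product doxorubicin traps, had no gene-end peak in any list.

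Signalling and cancer genes had 17, 11, 8 and 8 of 24 (70.8%, 45.8%, 33.3% and 33.3%), beside 40.7%, 29.2%, 21.2% and 14.7% over all coding genes. SRSF2, a splicing factor gene, had a peak in all lists, with 5.92, 5.16, 5.27 and 4.40, as did USP6. CRK, an adaptor gene, had 5.65 with DMSO and 2.99 with doxorubicin. Their median DMSO fold was 4.33. Of the 17, the combination held a peak at 8 (47.1%, beside 28.3% over all coding genes), and of 155 body peaks 41.3%, 27.1% and 18.1% were overlapped, near the values over all coding genes of the chromosome. NF1, the neurofibromin gene, had a gene-end peak of 3.86 with DMSO alone.

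HOXB genes, which set position along the body axis, had 7, 4, 6 and 4 of 10 (70%, 40%, 60% and 40%), beside 40.7%, 29.2%, 21.2% and 14.7% over all coding genes. HOXB1 had a DMSO peak of 6.18 at its 5′ end that OTS186935 overlapped (3.70) and that doxorubicin and the combination did not. Their peaks, of 2.85 and 3.0, lay at the 3′ end and overlapped no DMSO peak. HOXB2 had overlapping peaks of 4.14, 4.42, 3.80 and 3.15. HOXB13, which lies apart from the rest, had 5.51 with DMSO and 5.39 with doxorubicin, and HOXB7 and HOXB8 shared a DMSO peak of 3.80. All 4 combination genes were among the 7 with DMSO.

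The keratin and keratin-associated genes had 23, 23, 17 and 14 of 62 (37.1%, 37.1%, 27.4% and 22.6%), with a median DMSO fold of 5.23. KRT23 had 7.92 with DMSO and 6.06 with OTS186935, and the combination also overlapped this DMSO peak, with a peak that lay outside the gene-end window. KRT9 is given above. KRT35 had a DMSO peak of 6.77 at its 5′ end that no treated list overlapped, and another peak, of 5.98 with doxorubicin, at its 3′ end. Of 31 DMSO peaks in their bodies, 67.7% were overlapped with OTS186935, 48.4% with doxorubicin and 45.2% under the combination, above the 42.1%, 31.0% and 19.7% of all coding genes of the chromosome. Exceptions include KRT40 and KRT31, with a peak in DMSO alone, and KRT13, which had a gene-end peak (3.17) in DMSO alone. Many of these genes have near-identical copies side by side, so the placing of their reads is uncertain. Olfactory receptor genes had 4, 3, 3 and 2 of 13, of which OR3A2 and OR1R1 share 1 peak with folds of 6.18, 6.28, 5.75 and 5.28.

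Other lists had few gene-end peaks. CC chemokine genes had 1, 1, 0 and 0 of 16, CCL5 with DMSO and CCL18 with OTS186935, ribosomal protein genes 0, 1, 0 and 0 of 6, and the growth hormone cluster 0 of 5 in each list. The 22 genes over 300 kb had 12, 6, 4 and 6, and 354 DMSO peaks in their bodies, of which 40.4%, 29.4% and 22.3% were overlapped. RBFOX3, which encodes a neuronal splicing factor, held the most body peaks of them, with 46, 23, 26 and 8, followed by SDK2 with 36, 24, 19 and 9 and RPTOR, which encodes a subunit of the mTORC1 kinase complex, with 35, 26, 25 and 12. ASIC2, the longest, an ion channel gene, held 21, 21, 18 and 15. These long genes were thus near the share of all gene bodies with each drug.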

How the data were processed

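The data were 4 deposited peak lists of γH2AX ChIP-seq, 1 per library. They were made on hg38 with MACS2 2.2.7.1 among the tools listed, per the submitters' processing notes, which also list Picard 2.25.3, Bowtie2 2.4.2 and bedtools 2.30.0. How the peaks were called, and whether an input was used, is not given here. Each row holds a summit's positions and the authors' deposited values: a fold enrichment (a ratio to local background), a −log10 p, a −log10 q and a score, which was not used. The lists have no header and give no read totals, so the depth is unknown.

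Rows that overlapped or touched were merged, keeping the highest values. By the definitions of MACS2, the fold and −log10 p were turned back into a pileup and a local background. Only whole pileups were tried, and the best one met the −log10 p within 0.002 in 100% of rows. A second whole pileup also met it within 0.002 in 423 to 2109 rows per list. A peak was called overlapped when a peak of the other list shared at least 1 bp. Shares carry exact Clopper-Pearson 95% intervals, and a count of 0 an upper limit of 3 counts. No test was made, since each group had 1 library and the chromosome was chosen for its overlap. Other autosomes had the same margin of 1 Mb. Gene extents and promoters came from RefSeq tables of GRCh38.p14; exons and introns were not told apart. Genes named are those of highest DMSO fold that are overlapped in all or in none, the 4 of highest fold per treated list without a DMSO peak, and up to 4 per list; other list members, and the 11 strongest peaks, were named after their values were seen. The members and lists were chosen with earlier results of these data known. Some genes are not reported here and were left out of the lists. On simulated data the solving recovered 100% of 2000 whole pileups and overlaps differed from bedtools 2.31.1 in 0 peaks. Python 3.11.15 with numpy 2.4.6, pandas 2.3.3, scipy 1.17.1 and matplotlib 3.10.9 was used. Alternatives changed the strength limits, overlap rule, list length, end margin and comparison chromosomes.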

Additional observations from a re-analysis of the deposited data

How the results depend on the processing

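No paired analysis was possible because each group had 1 library. Values are given in the order OTS186935, doxorubicin, combination. The share of chromosome 17 DMSO peaks overlapped was 59.7%, 50.5% and 32.1% for DMSO peaks with −log10 q of 5 or more, and 81.2%, 70.8% and 43.8% at 10 or more. With −log10 q of at least 2 in every list it was 38.3%, 25.1% and 16.1%, and at least 5, 19.2%, 10.1% and 3.03%. A reciprocal overlap of 50% gave 34.8%, 23.1% and 13.9%, a treated peak within 1 kb 46.5%, 34.0% and 22.4%, lists of equal length 37.0%, 32.6% and 28.7%, and peaks at the floor of the background 29.9%, 17.9% and 10.1%. Over 13 alternatives the 39 shares kept within their 95% intervals 15 times.

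The distance from the other autosomes was negative with doxorubicin and with the combination under all 16 alternatives run, from −6.77 to −0.69 and from −13.03 to −2.61 points. With OTS186935 it turned positive for DMSO peaks with −log10 q of 10 or more (3.41) and for peaks at the floor of the background (1.54), and otherwise reached −5.06. With −log10 q of 5 or more in DMSO it was −3.59 with OTS186935 and −8.19 with the combination, and at 10 or more −0.69 with doxorubicin and −13.03 with the combination, on 48 peaks. At 5 or more in every list it was −5.06 with OTS186935 and −2.61 with doxorubicin. Lists of equal length gave −4.51, −6.77 and −6.70. Of alternatives chosen after seeing the data, the strength and background mix of chromosome 17 gave −3.32 with OTS186935, and chromosomes 16, 19, 20 and 22 as the comparison gave −2.61 with the combination. Windows of 2.5 kb gave 556 genes with OTS186935, 414 with doxorubicin and 284 under the combination. The causes of these shifts were not tested, except that wider windows and higher limits change which peaks count. With 1 library per group, no difference could be set against the spread between cultures.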

Other observations

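The stretch from 21 to 28 Mb, which holds the centromere and was left out of the chromosome 17 peaks, held 96 DMSO, 85 OTS186935, 57 doxorubicin and 37 combination peaks. Of the 96, 49.0% (38.6 to 59.4) were overlapped with OTS186935, 40.6% (30.7 to 51.1) with doxorubicin and 25.0% (16.7 to 34.9) with the combination. Its highest DMSO fold was 10.5, with a summit of 29 fragments.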
